A study of Mus musculus with 6 samples.

Results

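The Schlafen family was followed by RNA-seq in mouse cells named as vascular smooth muscle cells (VSMCs), the contractile cells of the arterial wall. Its members were chosen by gene symbol, as Slfn1, Slfn2, Slfn3, Slfn4, Slfn5, Slfn8 and Slfn9, which are 7 of the 54532 genes in the deposited table. The 6 libraries fell into 2 groups of 3. Cells of the control group (Ad-Con) were of WT genotype and had received an adenoviral vector with a control plasmid, and cells of the other group (Ad-PDK4) had received one with a plasmid for overexpression of pyruvate dehydrogenase kinase 4 (PDK4), the mitochondrial kinase that switches off the pyruvate dehydrogenase complex. Per the study, the cells were passaged primary cultures from the abdominal aorta of wild-type mice, checked for ACTA2 staining, and both groups were exposed to angiotensin II (Ang II) after the vector. The methods describe serum starvation before in vitro experiments, and the labels name only medium with serum. The labels do not name Ang II, and cells without it or without a vector were not analysed here. Replicates are called biological by the study, and the labels do not say whether they came from separate cultures or animals, so p-values measure the spread between these libraries, which may be technical. The question of the comparison was what PDK4 overexpression does to gene expression in these cells.

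Schlafen proteins are found in mammals and are named after the German word for sleep, because early members held back the growth of T cells. Many of their genes are induced by interferon, and family members have been linked to quiescence, to the cleavage or protection of tRNA, and to the restriction of viruses. In the mouse the short members (Slfn1 and Slfn2) hold little more than the Schlafen core, the intermediate members (Slfn3 and Slfn4) add a linker region, and the long members (Slfn5, Slfn8 and Slfn9) add a helicase-like domain as well.

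The 7 genes lie on chromosome 11 within 263.8 kb (GRCm38, 82951349 to 83215154). Slfn5 comes first, followed by Slfn9 and Slfn8 on the minus strand, and then by Slfn2, Slfn1, Slfn4 and Slfn3 on the plus strand. The longest annotated coding sequence was 1011 bases in Slfn1 and 1134 in Slfn2, 1920 in Slfn3 and 1806 in Slfn4, and 2652 in Slfn5 and 2730 in each of Slfn8 and Slfn9. Slfn8 and Slfn9 had 92.71% of their coding bases in common over 2730 aligned bases, and Slfn3 and Slfn4 92.23% over 1788. All other pairs were between 55.21% and 73.38% identical, including the short pair Slfn1 and Slfn2 at 69.61%. Of the 50-base windows in the longest transcript, 15.4% in Slfn8, 11.4% in Slfn9, 17.99% in Slfn3 and 11.1% in Slfn4 occurred unchanged in the transcript of another gene, against 4.272% in Slfn2 and 3.592% in Slfn5. Values within the pairs Slfn8 and Slfn9, and Slfn3 and Slfn4, are therefore less certain, because how reads fitting both copies were counted is not given in the sources used here.

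Promoters (250 bases before and 50 after the annotated start, from RefSeq on GRCm38.p6) were found for all 7 members, and 5 of them are shown because these are the members whose transcripts were detected. They are written 5′ to 3′ on the strand of the gene. The window of Slfn5 begins at 82951852, inside the gene as deposited, which begins at 82951349, and bases before that were not searched. Capitals mark matches, on either strand, to GAAA followed after any 2 bases by GAAA (the core of the interferon-stimulated response element, ISRE, bound by factors that interferon switches on), to GGGNNTTCC (an NF-kB-type site) and to ACTTCCTGG (an ETS-type site).
Slfn2, chr11:83064862-83065161, plus strand: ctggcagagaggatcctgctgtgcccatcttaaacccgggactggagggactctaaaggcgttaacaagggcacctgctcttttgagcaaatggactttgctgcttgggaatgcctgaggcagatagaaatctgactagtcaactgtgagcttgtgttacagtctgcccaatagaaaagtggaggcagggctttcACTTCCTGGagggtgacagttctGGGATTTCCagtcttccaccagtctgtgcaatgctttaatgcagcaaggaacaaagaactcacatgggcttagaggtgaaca
Slfn8, first start, chr11:83020761-83021060, minus strand: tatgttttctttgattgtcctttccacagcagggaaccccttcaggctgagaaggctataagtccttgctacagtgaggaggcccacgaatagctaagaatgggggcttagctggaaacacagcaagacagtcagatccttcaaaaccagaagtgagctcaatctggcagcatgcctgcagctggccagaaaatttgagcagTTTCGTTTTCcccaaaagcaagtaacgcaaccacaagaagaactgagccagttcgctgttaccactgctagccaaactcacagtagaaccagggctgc
Slfn9, chr11:82991781-82992080, minus strand: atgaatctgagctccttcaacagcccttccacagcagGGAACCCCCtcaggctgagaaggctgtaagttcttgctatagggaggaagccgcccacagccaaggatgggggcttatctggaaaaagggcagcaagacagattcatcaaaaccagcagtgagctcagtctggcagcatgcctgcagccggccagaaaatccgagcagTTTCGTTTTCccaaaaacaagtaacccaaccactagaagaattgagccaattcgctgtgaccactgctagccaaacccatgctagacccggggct
Slfn5, chr11:82951852-82952151, plus strand: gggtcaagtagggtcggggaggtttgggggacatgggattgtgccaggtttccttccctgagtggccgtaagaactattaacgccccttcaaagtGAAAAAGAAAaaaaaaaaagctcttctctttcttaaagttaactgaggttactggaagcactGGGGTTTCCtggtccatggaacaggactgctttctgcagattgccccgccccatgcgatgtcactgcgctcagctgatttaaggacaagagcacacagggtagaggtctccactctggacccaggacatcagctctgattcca
Slfn3, chr11:83191080-83191379, plus strand: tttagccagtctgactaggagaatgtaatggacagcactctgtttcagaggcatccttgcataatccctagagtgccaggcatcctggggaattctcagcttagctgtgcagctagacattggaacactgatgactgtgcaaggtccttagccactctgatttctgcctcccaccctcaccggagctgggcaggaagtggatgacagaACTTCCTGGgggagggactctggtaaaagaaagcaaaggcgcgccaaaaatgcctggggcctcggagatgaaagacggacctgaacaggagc

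The ISRE core was present in 3 of 7 member promoters, those of the long genes Slfn8 (bases -48 to -39 from the start), Slfn9 (-45 to -36) and Slfn5 (-155 to -146). Over 32851 promoters of the same length, 3.443% held it. In Slfn8 and Slfn9 the matched letters were the same, and these promoters shared 83.39% of their bases, whereas the other pairs of member promoters shared 39.73% to 50.71%. Slfn8 has a further annotated start nearby, and its window held the same match. The NF-kB-type letters occurred in Slfn2, Slfn5 and Slfn9 and in 5.82% of all promoters, and TTCNNNGAA (the interferon-gamma activated site) occurred in 0 of 7 and in 8.298%. No 2 of the matches in a member promoter overlapped.

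The ETS-type letters were found in the 4 short and intermediate genes and in 0.843% of all promoters. Unlike the other patterns searched, these 9 letters leave no base free. Whether they were set before these promoters were read is not stated, so the shares are no test of enrichment. The surroundings of the matches are shown in windows of 30 bases, because Slfn1 and Slfn4, which were not detected, carried the same letters as Slfn2 and Slfn3, which were.
Slfn2, chr11:83065049-83065078, plus strand: gggctttcACTTCCTGGagggtgacagttc
Slfn1, chr11:83116738-83116767, plus strand: tgtctcacACTTCCTGGagtgacatcaacc
Slfn4, chr11:83175105-83175134, plus strand: ccggttatACTTCCTGGagtgacgaaatgc
Slfn3, chr11:83191280-83191309, plus strand: atgacagaACTTCCTGGgggagggactctg
A match describes the letters only. Binding of any factor was not measured, and a missing match says only that these letters are not in this window.

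The values analysed were FPKM, the number of fragments on a gene scaled by the length of the gene and the size of the library. Multiplied back, 100% of the values came out as whole reads, with 17588942 to 21861872 reads on genes per library and 19650 to 20615 genes detected. The libraries differed from each other by more than sampling noise, with a chi-square per degree of freedom of 3.99 to 10.9 within groups and 77.1 to 97.7 between them. Pdk4 itself was lower under the overexpression label, at 9.50, 10.4 and 10.1 FPKM in Ad-Con replicates 1 to 3 and 7.67, 7.40 and 7.38 in Ad-PDK4 replicates 1 to 3, a log2 fold change of -0.42 (limma, SE 0.06, adjusted p = 1.1e-03). The paper lists the same primer pair for cloning PDK4 and for RT-PCR of mouse PDK4, and does not describe the adenoviral insert further. The table counts reads of the mouse gene, and whether it would hold reads from the plasmid is not known. Both group names are therefore used as labels only, and higher or lower means higher or lower under the label Ad-PDK4.

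Slfn2, Slfn8, Slfn9, Slfn5 and Slfn3 were all higher in the libraries labelled Ad-PDK4, and Slfn1 and Slfn4 were not detected. Slfn2 and Slfn8 rose most, to 13.9 and 12.6 times their mean level in Ad-Con, Slfn9 and Slfn5 rose to 5.33 and 5.24 times, and Slfn3 to 1.51 times. Only these 5 of 7 passed the filter on low values (mean FPKM of at least 0.5), and each of them had an adjusted p under 0.05 in limma, which 21.8% of the 13423 genes tested also reached in the higher direction. The change was at least 2-fold in 4 of them, against 3.95% of all genes tested. In bulk RNA, more cells expressing a gene and more transcript per cell cannot be told apart.

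**Figure D1:**
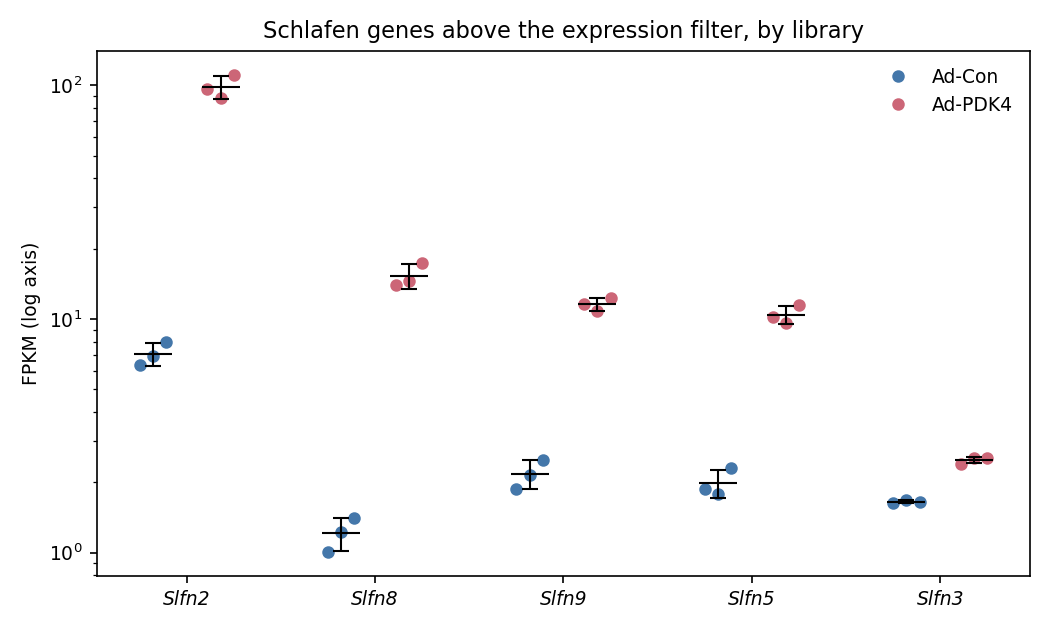
FPKM of the 5 detected Schlafen genes in each library on a log axis, with points for the 3 replicates of each group and bars for the group means and SD. The groups do not overlap for any of the 5 genes, and Slfn2 is the most abundant in both groups, at a mean of 7.09 FPKM in Ad-Con and 98.4 in Ad-PDK4.

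Slfn2 (ENSMUSG00000072620, chr11:83065112-83070678, plus strand) is the short member that keeps T cells and monocytes quiescent and shields tRNA from the ribonuclease angiogenin. It had 6.38, 6.95 and 7.96 FPKM in Ad-Con replicates 1 to 3, from 216, 203 and 240 reads, and 96.1, 88.1 and 111 FPKM in Ad-PDK4 replicates 1 to 3, from 2909, 2567 and 4077 reads. The lowest library labelled Ad-PDK4 was 11.1 times the highest labelled Ad-Con. On the log2(FPKM + 0.1) scale used for every fold change here, the difference was 3.77 (limma, SE 0.11, adjusted p = 2.3e-07). By level per length, Slfn2 went from place 6351 to place 456 among the 13423 genes tested. A gene annotated on the opposite strand across its body, Gm20234, had 1 to 19 reads per library, and how reads fitting both genes were counted is not known.

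Slfn8 (ENSMUSG00000035208, chr11:83002158-83020810, minus strand) is a long member and, with Slfn9, among the closest mouse relatives of human SLFN11, which acts at stalled replication forks and cleaves tRNA. Its level was 1.01, 1.23 and 1.40 FPKM in Ad-Con (84, 88 and 104 reads) and 13.9, 14.6 and 17.4 FPKM in Ad-PDK4 (1035, 1045 and 1575 reads). It was the lowest of the 5 detected genes in Ad-Con and the highest after Slfn2 in Ad-PDK4, without overlap between the groups. The log2 fold change was 3.56 (limma, SE 0.13, adjusted p = 8.4e-07).

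Slfn9 (ENSMUSG00000069793, chr11:82978390-82991830, minus strand) is the neighbour and near copy of Slfn8. It had 1.88, 2.15 and 2.50 FPKM in Ad-Con (228, 225 and 270 reads) and 11.6, 10.8 and 12.3 FPKM in Ad-PDK4 (1261, 1132 and 1619 reads). These values did not overlap, and the log2 fold change was 2.37 (limma, SE 0.11, adjusted p = 2.5e-06), which is smaller than that of Slfn8.

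Slfn5 (ENSMUSG00000054404, chr11:82951349-82964840, plus strand) is a nuclear long member whose human counterpart acts as a transcriptional corepressor. Its level was 1.87, 1.78 and 2.30 FPKM in Ad-Con (241, 198 and 264 reads) and 10.2, 9.62 and 11.4 FPKM in Ad-PDK4 (1172, 1065 and 1595 reads). Again every library labelled Ad-PDK4 lay above every library labelled Ad-Con, with a log2 fold change of 2.34 (limma, SE 0.11, adjusted p = 3.3e-06). Its antisense gene Slfn5os had at most 1 read in any library.

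Slfn3 (ENSMUSG00000018986, chr11:83191330-83215154, plus strand) is an intermediate member studied in T cells and in the differentiation of intestinal epithelium. It had 1.63, 1.69 and 1.65 FPKM in Ad-Con (113, 101 and 102 reads) and 2.40, 2.55 and 2.54 FPKM in Ad-PDK4 (149, 152 and 191 reads). The groups were apart, but the log2 fold change of 0.56 (limma, SE 0.10, adjusted p = 2.5e-03) was below 2-fold. Non-overlap in the higher direction held for these 5 detected members and for 27.8% of all genes tested, against 26.5% in the lower direction.

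Slfn1 (ENSMUSG00000078763, chr11:83116849-83122670, plus strand), the founding member that restrains thymocyte growth, had 0 reads in all 6 libraries. Slfn4 (ENSMUSG00000000204, chr11:83175186-83190216, plus strand), a gene of monocytes and macrophages, had 1 read in Ad-Con replicate 1 and 0 in the other 5 libraries. A count of 0 allows a mean of up to 3 reads, which is 0.0729 to 0.0920 FPKM for Slfn1 and 0.0343 to 0.0432 FPKM for Slfn4, and this covers counting error only. Neither gene could be tested. Slfn4 shares 92.23% of its coding bases with Slfn3, so reads that fit both could have been dropped or assigned to either.

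Of the relatives outside the 7, the pseudogene Slfn10-ps was the only one detected. It had 45, 43 and 57 reads in Ad-Con and 193, 174 and 218 in Ad-PDK4, a log2 fold change of 1.84 (limma, SE 0.15, adjusted p = 5.9e-05). Its longest transcript shared 19.71% of its 50-base windows with other genes, mostly Slfn8 and Slfn9, and the part of shared reads in its value was not tested. Slfn14, the long member of the erythroid and platelet lineages, had at most 1 read in any library, and Slfnl1 had 0.

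The members were next ordered by level, which FPKM allows because it is per length. In Ad-Con the order of the means was Slfn2 at 7.09 ± 0.799, Slfn9 at 2.17 ± 0.310, Slfn5 at 1.99 ± 0.278, Slfn3 at 1.65 ± 0.0297 and Slfn8 at 1.21 ± 0.197 FPKM (SD, n = 3). In Ad-PDK4 it was Slfn2 at 98.4 ± 11.6, Slfn8 at 15.3 ± 1.87, Slfn9 at 11.6 ± 0.723, Slfn5 at 10.4 ± 0.918 and Slfn3 at 2.49 ± 0.0812 FPKM. The values of Slfn9 and Slfn5 overlapped in both groups, and no other neighbours in either order did. Slfn8 therefore stood below the other 4 detected members in one group and above 3 of them in the other.

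Summed over the members, the family had 12.8, 13.8 and 15.8 FPKM in Ad-Con and 134, 126 and 155 FPKM in Ad-PDK4, a ratio of means of 9.78. Slfn2 made up 73.59% of that difference. Its share of the family sum was 50.2% ± 0.255 in Ad-Con and 71.2% ± 0.916 in Ad-PDK4 (SD, n = 3), and that of Slfn8 was 8.55% ± 0.567 and 11.1% ± 0.644. The shares of the members that rose less went the other way, from 15.4% ± 0.581 to 8.41% ± 0.400 for Slfn9, from 14.0% ± 0.971 to 7.54% ± 0.139 for Slfn5 and from 11.8% ± 1.21 to 1.82% ± 0.194 for Slfn3. In shares of reads, not divided by gene length, Slfn2 held 24.6% in Ad-Con and 44.2% in Ad-PDK4.

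**Figure D2:**
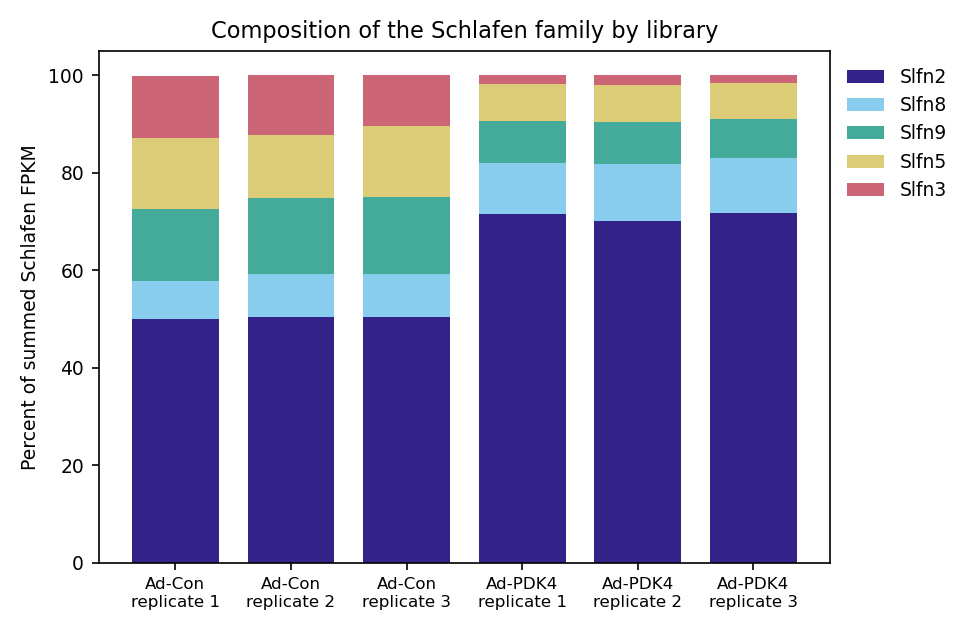
Share of each detected member in the summed FPKM of the family, in percent, with 1 stacked bar for each library. Slfn2 fills 50.2% of the sum on average in Ad-Con and 71.2% in Ad-PDK4, while Slfn3 goes from 11.8% to 1.82%. Slfn4, with 1 read in 1 library, is not drawn.

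To see whether the members kept their proportions, the log2 ratio of FPKM was compared for the 10 pairs of detected members. In 9 of 10 pairs the ratios of the groups did not overlap. For the FPKM of single genes, 54.3% of those tested were without overlap in either direction, and the share among pairs of other genes was not computed. The pairs reuse the same members, so they are not independent and largely restate the fold changes given above. The exact two-sided permutation test gave 0.1 for each of the 9 pairs without overlap, the smallest p that 3 against 3 libraries allow. This permutation p was 0.111 after adjustment over the 10 pairs, so no pair could reach 0.05. The ratio of Slfn8 over Slfn9 went from -0.80 to 0.39, and the difference between a library of one group and one of the other ranged from 1.02 to 1.34. That of Slfn2 over Slfn8 changed little, from 2.46 to 2.68, with differences between 0.04 and 0.37. Slfn5 over Slfn9 was the pair that overlapped, at -0.12 in Ad-Con and -0.16 in Ad-PDK4, with differences from -0.18 to 0.15 (exact permutation p = 0.8).

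Within a group most detected members shared their highest library. Ad-Con replicate 3 was the highest of its group for 4 of 5 detected members, and Ad-PDK4 replicate 3 for 4 of 5, with Slfn3 the exception in both. Over all genes tested these libraries were the highest for 33.1% and 36.4%, and over the interferon-induced antiviral effectors for 58.8% and 64.7%. In the interferon signalling list they were the highest for 22.2% and 55.6%. The other lists read below gave 69.2% and 30.8% (tRNA), 60% and 33.3% (cell cycle), and 58.3% and 41.7% (replication stress). The spread is small beside the differences between the groups for Slfn2, Slfn8, Slfn9 and Slfn5.

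Around the cluster, of the 10 expressed coding genes nearest to it, 5 on each side, 2 were higher and 2 lower past the threshold, against 21.8% and 20.8% of all genes tested and 42.7% in either direction. None was changed 2-fold, which 3.95% were upward and 2.68% downward, with log2 fold changes from -0.51 to 0.44. Rffl rose by 0.44 (limma adjusted p = 5.3e-03) and Zfp830 by 0.33 (limma adjusted p = 0.017). Mmp28 and 1700020L24Rik were lower, by -0.25 and -0.51 (limma adjusted p = 0.044 and 0.046), and each failed to pass in 5 of the 6 fits made without 1 library, with -0.31 for 1700020L24Rik without Ad-Con replicate 1. Zfp830 lost its call without Ad-Con replicate 3, at 0.29 (limma adjusted p = 0.060). Nle1, the nearest before the cluster, had 0.23 and did not pass (limma adjusted p = 0.087), but passed at 0.32 without Ad-PDK4 replicate 1 (limma adjusted p = 0.035). Farther out, 310.6 kb after the cluster and outside these 10, the chemokine gene Ccl5, chosen after its values were seen, was higher by 9.51 (limma adjusted p = 4.7e-06), more than any Schlafen member. How many of these genes passed moved with the processing.

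Inside the span, 15 annotated genes were no members, and 5 of them had more than 3 reads in any library. Besides Slfn10-ps, the processed pseudogene Gm11425 was higher, at 22, 34 and 17 reads in Ad-Con and 45, 50 and 48 in Ad-PDK4 (log2 fold change 0.96, limma adjusted p = 0.027), a call lost in 5 of the 6 fits made without 1 library. Gm20234, opposite Slfn2, had 5, 1 and 11 reads against 6, 13 and 19, and did not pass (limma adjusted p = 0.18). Because Gm20234 overlaps Slfn2 and the strand setting of the counting is not given in the sources used here, their reads cannot be told apart. Gm11424 and 1190001M18Rik had 6 reads or fewer in every library.

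**Figure D3:**
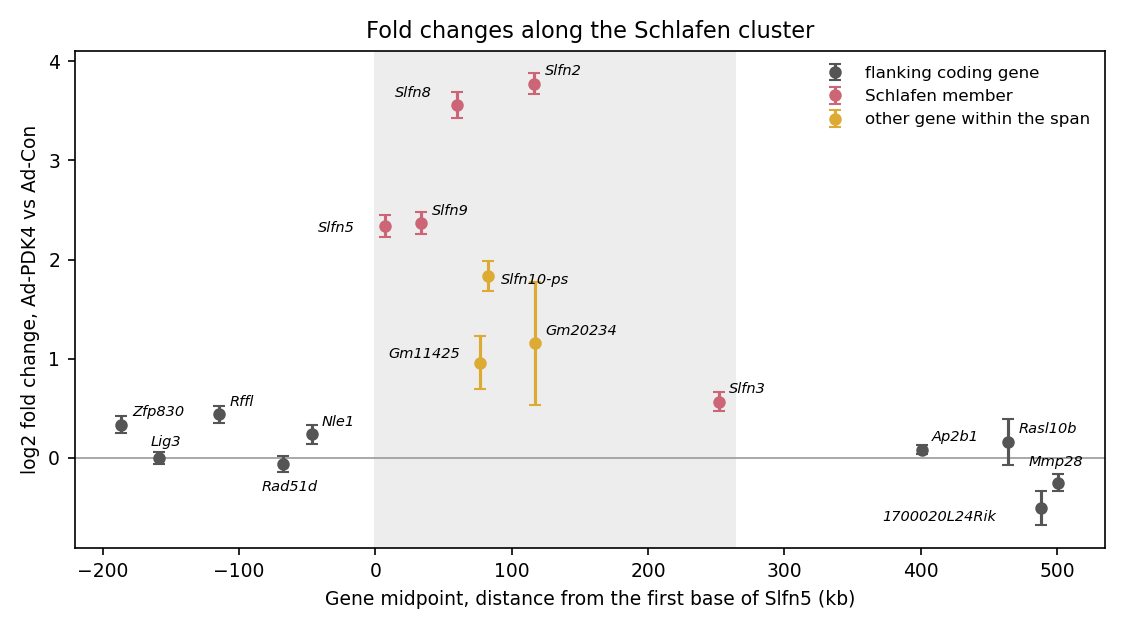
Log2 fold change of the tested genes along the cluster against the distance of the gene's midpoint from the first base of Slfn5, in kb, with bars for the SE from limma and grey shading for the span of the members. The 4 highest points drawn are Slfn2, Slfn8, Slfn9 and Slfn5, and the 9 flanking genes drawn lie between -0.51 and 0.44. A miRNA gene in the span, Gm27598, and 1 flanking gene are not drawn. Gm27598 had 0 reads in every Ad-Con library and 1, 1 and 2 in Ad-PDK4. Its fold change of 3.52 (limma adjusted p = 8.1e-04) rests on these few reads.

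Genes of interferon signalling, a pathway known to induce many Schlafen genes, were examined in the same fit. Of 20 listed genes 18 could be tested, and 13 were higher (21.8% of all genes tested), 0 lower (20.8%) and 5 did not pass, with a median log2 fold change of 0.85 against -0.003 for all genes tested. Factors that bind ISREs were among those that rose. The promoter window of Slfn2, the member that rose most, held no exact match to the ISRE core letters. Matches differing by a base, and other forms of the site, were not searched. A link to the Schlafen values was not tested. Stat2 had 8.38 ± 0.187 FPKM in Ad-Con and 52.1 ± 3.36 in Ad-PDK4 (log2 fold change 2.62), Irf9 9.88 ± 0.455 and 29.7 ± 0.953 (1.58), and Irf7, an amplifier of type I interferon production, 5.69 ± 0.794 and 184 ± 11.6 (5.00).

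The feedback inhibitors Usp18 (2.47), Socs1 (1.02) and Socs3 (0.92) rose too, as did Irf1 (1.35), Ifnar2 (1.22), Jak2 (0.77), Ptpn2 (0.75), Irf2 (0.42) and Ifngr1 (0.36). Ifnar1 (0.04), Ifngr2 (0.06), Jak1 (0.10), Tyk2 (0.20) and Irf3 (0.02) did not pass. Ifnb1, which encodes interferon beta, had 0 reads in all of Ad-Con and 7, 5 and 5 reads in Ad-PDK4, too few for the filter. Of 17 interferon-induced antiviral effectors 16 were higher, against 21.8% of all genes tested, and 15 of them at least 2-fold, against 3.95%, with a median of 3.04. Bst2, which tethers virions, rose by 3.02, Ifit3 by 3.46, Ifit1 by 5.05 and the ubiquitin-like Isg15 by 4.89, and the remaining gene did not pass. The changes of Slfn2 and Slfn8 were above the median of this list, and those of Slfn9, Slfn5 and Slfn3 below it.

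**Figure D4:**
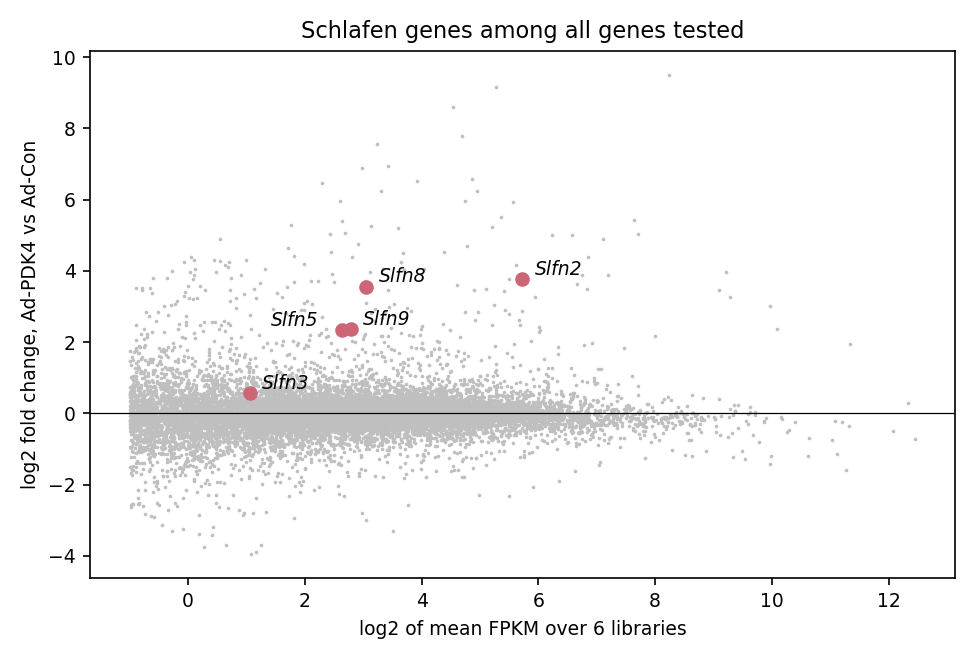
Log2 fold change of the 13423 genes tested against their mean level, with the 5 detected Schlafen members marked. Slfn2 and Slfn8 lie at 3.77 and 3.56, Slfn9 and Slfn5 at 2.37 and 2.34, and Slfn3 at 0.56.

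Outside the family, the 5 genes whose profile over the 6 libraries lay nearest to that of Slfn2 were Gbp3, Igtp, Ifit3b, Ly6a and Dhx58. Likeness was the root-mean-square distance between profiles of log2(FPKM + 0.1), each centred on its own mean. It was 0.071 for Gbp3, an interferon-induced guanylate-binding GTPase, and 0.120 for Igtp, an immunity-related GTPase. Ifit3b, an IFIT family gene, and Ly6a, the surface protein Sca-1, were both at 0.138, and Dhx58, which encodes the RNA sensor LGP2, was at 0.140. Among the members Slfn8 stood at 0.129, Slfn9 at 0.705, Slfn5 at 0.721 and Slfn3 at 1.61. The measure mostly reflects the size of the difference between the groups, since the log2 fold changes of the 5 nearest genes ran from 3.64 for Ifit3b to 3.92 for Dhx58, around the 3.77 of Slfn2.

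**Figure D5:**
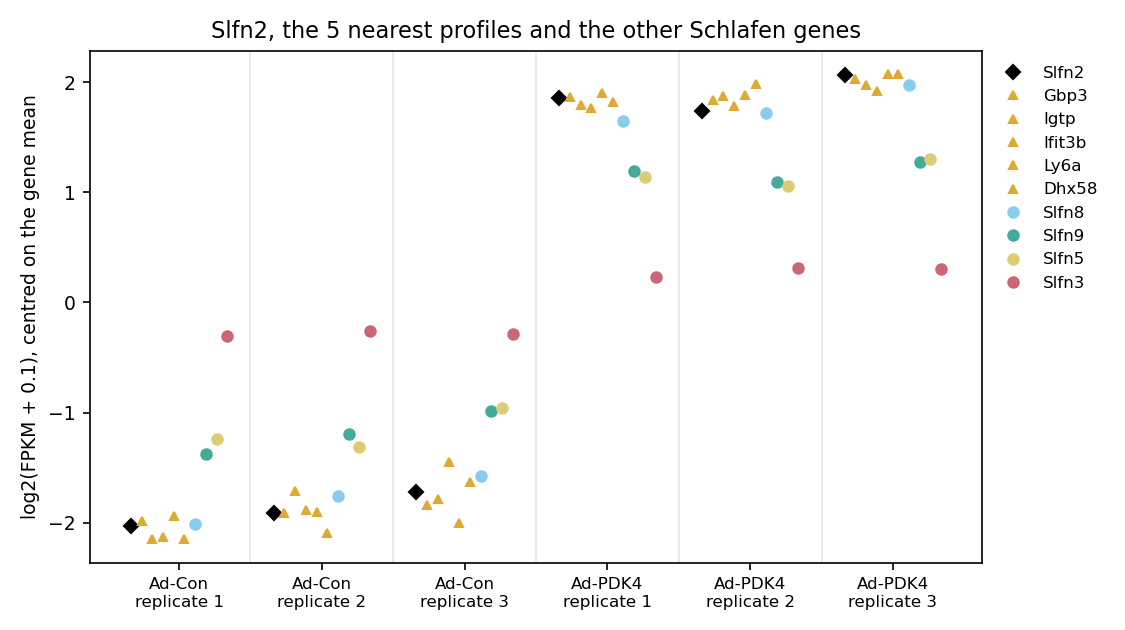
Centred log2(FPKM + 0.1) in each library for Slfn2 (diamonds), the 5 nearest genes (triangles) and the other detected members (circles). Slfn8 runs with Slfn2, at a distance of 0.129, while Slfn9 and Slfn5 span a smaller range and Slfn3 the smallest.

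Genes of the processes that Schlafen proteins are known to act on were read next. Past the threshold in either direction were 42.7% of all genes tested, with 21.8% higher and 20.8% lower, and 5 of 13 tRNA genes and 5 of 12 replication stress genes are near that share. Of 13 genes of tRNA cleavage, protection and repair, 2 were higher, 3 lower and 8 did not pass, with a median of -0.05. Rnh1, the ribonuclease inhibitor that holds angiogenin in check, was lower by -0.20 (limma adjusted p = 0.022), a call lost in 4 of the 6 fits made without 1 library, and the tRNA ligase gene Rtcb, the splicing endonuclease subunit Tsen34 and the methyltransferase Nsun2 had -0.02, -0.11 and 0.04 and did not pass, but Tsen34 passed at -0.17 without Ad-PDK4 replicate 2 (limma adjusted p = 0.036). Ang, the angiogenin gene, chosen after its values were seen, was lower by -0.32 (limma adjusted p = 5.6e-03).

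Of 15 genes of quiescence and cell-cycle entry 5 were higher, 4 lower and 6 did not pass, with a median of -0.05 and a range from -1.34 to 0.83. The 2 that were lower by at least 2-fold (2.68% of all genes tested) were Mki67 and Ccna2, at -1.34 and -1.23 (limma adjusted p = 2.6e-04 and 5.7e-04), named after their values were seen. The cell-cycle inhibitors Cdkn1a and Cdkn1b had 0.23 and -0.19 (limma adjusted p = 0.022 and 0.017), Pcna had 0.15 (limma adjusted p = 0.048), and Ccnd1 had 0.20 and did not pass (limma adjusted p = 0.074). Of these calls, that of Cdkn1a was lost in 4 of the 6 fits made without 1 library, that of Pcna in 5, and that of Cdkn1b without Ad-Con replicate 3. Of 12 genes of the replication stress response 1 was higher, 4 lower and 7 did not pass, with a median of -0.18. Rpa1, a subunit of the single-strand binding complex that human SLFN11 contacts, was lower by -0.73 (limma adjusted p = 1.8e-04), and Ddb1 by -0.15 (limma adjusted p = 0.030), the latter a call lost in 5 of the 6 fits made without 1 library. Cul4a and Cul4b, which encode ubiquitin ligase scaffolds, had -0.01 and 0.10 and did not pass, but Cul4b passed at 0.21 without Ad-PDK4 replicate 2 (limma adjusted p = 0.019).

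Since several Schlafen genes are best known from blood cells, markers of such cells were read in the same libraries. Of 12 macrophage markers 8 had at most 3 reads in every library, and Ptprc, Tyrobp, C1qa, C1qb, C1qc and Itgam had 0. Their summed level was 15.0 to 18.1 FPKM in Ad-Con and lower, 6.08 to 7.57 FPKM, in Ad-PDK4, and most of it was Cd68, which is not limited to macrophages and fell from 14.2 ± 1.78 to 4.24 ± 0.991 FPKM. Csf1r went the other way without overlap, from 11, 23 and 35 reads to 56, 62 and 61, and Lyz2 had 1.51 ± 0.195 and 1.98 ± 0.250 FPKM. Of 9 T cell markers 6 had at most 3 reads, with Cd3d, Cd3e, Cd3g and Cd8a at 0 and a summed level of 0.202 to 0.536 FPKM in Ad-Con and 0.466 to 0.941 in Ad-PDK4. Lck, another T cell marker, had 9, 9 and 10 reads in Ad-Con and 21, 26 and 45 in Ad-PDK4. All 6 neutrophil markers had at most 3 reads, with summed levels of 0 in Ad-Con and up to 0.130 FPKM in Ad-PDK4, and 3 of 4 B cell markers had 0, with sums of 0.0337 to 0.265 and 0.0311 to 0.157 FPKM. Markers such as Csf1r and Lck thus moved with the groups while others were at 0, and their part in the Schlafen values was not tested.

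The smooth muscle label was checked in the same way. Only 4 of 9 smooth muscle markers passed the filter, with a summed level of 116 to 117 FPKM in Ad-Con and 63.6 to 71.2 in Ad-PDK4, of which Acta2 made up 78.0 and 36.2 FPKM on average, while Myh11, Tagln, Cnn1 and Des had at most 0.555 FPKM in any library. All 6 fibroblast markers passed it, with sums of 1264 to 1357 and 670 to 745 FPKM. Most of each sum was Col1a1, at a mean of 1055.5 FPKM in Ad-Con and 434.8 in Ad-PDK4. Of the 6, 4 were lower, against 20.8% of all genes tested, and 1 did not pass. Dcn was higher, against 21.8% of all genes tested, at 90.1 ± 8.20 FPKM in Ad-Con and 160.6 ± 19.0 in Ad-PDK4. Of 7 endothelial markers 3 had at most 3 reads, with sums of 0.617 to 0.798 and 0.885 to 1.18 FPKM. Of the remaining smooth muscle markers, Tpm2 averaged 27.8 FPKM in Ad-Con and 22.1 in Ad-PDK4, and Smtn 8.32 and 8.44. Mylk averaged 0.756 and 0.123, and Lmod1 0.720 and 0.570. Among the fibroblast markers, Pdgfra averaged 20.5 and 19.9 FPKM, Thy1 17.2 and 9.49, and Lum 7.46 and 3.31. Myh11, Tagln, Cnn1 and Des were thus low beside the fibroblast markers, while the means of Acta2 and Tpm2 lay above those of Pdgfra, Thy1 and Lum. The name smooth muscle is used here as given. The part of these markers in the Schlafen values was not tested either.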

How the data were processed

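Gene expression was measured by RNA-seq in 6 libraries, grouped by their treatment labels, with replicate numbers from their titles. The authors deposited FPKM per gene and library, without pooling, with the gene lengths used. The submitters' processing notes name CASAVA 1.8, fastp, HISAT2 2.0.5, featureCounts 1.5.0-p3, DESeq2 1.20.0 and GRCm39, but 98.33% of 54409 matched identifiers had the coordinates of GENCODE M21 on GRCm38, which are given here. Labels and methods name different library kits (SMARTER and NEBNext).

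Reads were recovered from FPKM and gene length (tolerance 0.01). log2(FPKM + 0.1) was tested with limma 3.58.1 (R 4.3.3; trend and robust moderation) for the 13423 genes whose FPKM averaged 0.5 or more, with Benjamini-Hochberg adjustment over all of them. Genes were called at an adjusted p below 0.05, and at least 2-fold where stated. The code was tested on simulated data. Same-numbered libraries did not deviate together (correlations -0.0460 to -0.0013), so no pairing was used. Alternatives covered the pseudocount, filter, scaling, moderation, limma-voom on recovered reads, a replicate block and leaving out each library.

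Members and lists were chosen with earlier results of these data known. Named genes were the members, Slfn10-ps, Slfn14, Slfnl1, Pdk4, genes in the span and 5 expressed coding genes on each side, the interferon signalling list, the 4 most abundant genes of each other list, and the 5 profiles nearest to Slfn2. Others named are Slfn5os and Gm20234 as overlapping genes, cell type markers, and the genes said to be chosen after their values were seen. Some genes that the rule takes in are not reported here. Identities are from global alignments (match 1, mismatch -1, gap opening -5, extension -1).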

Additional observations from a re-analysis of the deposited data

How the results depend on the processing

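Each of the 5 detected members kept its direction and its side of the threshold in all 17 alternatives (16 for Slfn3, which a minimum mean FPKM of 5 removes), with log2 fold changes of 3.62 to 3.86 for Slfn2, 2.88 to 3.67 for Slfn8, 1.99 to 2.47 for Slfn9, 1.93 to 2.44 for Slfn5 and 0.40 to 0.62 for Slfn3. Without pairing in the labels, the replicate block changed no member's call; it moved the counts in lists to 1 tRNA gene higher, 3 cell-cycle genes higher and 2 replication stress genes lower. At a minimum mean FPKM of 5, 258 genes were called higher and 114 lower, with 0 tRNA genes higher, 2 cell-cycle genes lower and 1 flanking gene past the threshold, and at a pseudocount of 1, 153 genes were called lower. Flanking genes numbered 2 under TPM scaling, without moderation by trend and without a filter. tRNA genes numbered 1 higher without a filter and under quantile normalization, and 1 lower under TPM scaling and without trend. Cell-cycle genes numbered 3 higher without trend, and replication stress genes 2 lower under TPM scaling and without a filter. Leaving out a library gave 2 to 3 flanking genes, 1 tRNA gene higher and 1 to 4 lower (1 without Ad-Con replicate 1 or 3 or Ad-PDK4 replicate 1), 3 to 4 cell-cycle genes higher (3 without Ad-Con replicate 1 or 2 or Ad-PDK4 replicate 1), and 1 to 2 replication stress genes higher (2 without Ad-PDK4 replicate 2) and 1 to 3 lower (1 without replicate 3 of either group). By reads, the shares in Ad-Con and Ad-PDK4 were 24.6% and 44.2% for Slfn2, 26.2% and 17.8% for Slfn5, 10.3% and 16.9% for Slfn8, 27.0% and 18.7% for Slfn9, and 2.31% for Slfn3 in Ad-PDK4. Small values that did not pass changed sign, at 0.0357 (Lig3), 0.0212 (Rtcb) and 0.0290 (Cul4a) under TPM scaling and at -0.0292 (Ifnar1), -0.0510 (Irf3) and -0.0261 (Nsun2) under quantile normalization, and leaving out a library gave -0.0283 to 0.0298 for Lig3, -0.111 to 0.0016 for Rad51d, -0.0537 to 0.352 for Rasl10b, -0.0123 to 0.113 for Ifngr2, -0.0321 to 0.0523 for Irf3 and -0.0010 to 0.109 for Nsun2. The causes were not tested. Depth limits Slfn1 and Slfn4, which at 0 or 1 read could have changed unseen.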

Other observations

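In the list of quiescence and cell-cycle entry, the following genes were named after their values were seen. Mki67 had 4.67 ± 0.769 FPKM in Ad-Con and 1.77 ± 0.252 in Ad-PDK4, and Ccna2, which encodes an S-phase cyclin, had 2.76 ± 0.468 and 1.11 ± 0.123 FPKM (SD, n = 3). Myc and Klf2, a quiescence factor of T cells, were higher by 0.81 and 0.82 on the log2 scale (limma adjusted p = 1.4e-04 and 1.3e-03), and Ccne1, a cyclin of entry into S phase, by 0.83 (limma adjusted p = 0.010).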
